A study of Bos taurus with 8 samples.

Results

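Cumulus expansion is the swelling of the somatic cell layer around the oocyte shortly before ovulation, and the genes followed here are 9 named genes of that process: AREG, EGFR, HAS2, PTGS2, PTX3, TNFAIP6, VCAN, CD44 and GREM1. They were taken by symbol from a table of 16606 genes, all 9 were present in it, and they were followed across the 8 libraries that the labels name. The luteinising hormone surge makes granulosa cells release EGF-like ligands such as amphiregulin, which act on the EGF receptor of cumulus cells. Together with factors secreted by the oocyte this signal induces the synthesis of hyaluronan, which proteins bound to it cross-link into an elastic matrix. GREM1, HAS2, PTGS2 and PTX3 are widely used as cumulus cell indicators of oocyte competence, whereas the libraries here were made from cleaving embryos.

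The embryos were bovine (Bos taurus), produced by fertilising in vitro matured oocytes of slaughterhouse ovaries with frozen Holstein semen. Edited embryos were injected in the cytoplasm as zygotes with a guide RNA and PEmax, an optimised prime editor made of a Cas9 nickase and a reverse transcriptase, and carry the RPL12 label A148G. Titles call these samples base edited, whereas the treatment protocol describes prime editing. The 4-cell samples carry the source name oocytes, whereas their titles name 4-cell embryos, and the titles were followed. Control embryos came from the same kind of culture, and the labels do not say whether they were injected. There were 4 groups, namely controls and edited embryos of either cleavage stage (4-cell or 8-cell), each with 2 libraries, and each library was a pool of 5 embryos. Oocytes were matured inside their cumulus and the labels do not say when, or how completely, cumulus cells were taken off. The share of edited alleles is not given either.

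Values are CPM, reads per 1000000 reads of the library. Between 33527531 and 35122409 reads were recovered per library, so that 3 reads, the limit that a count of 0 allows, correspond to 0.0858 to 0.0899 CPM. The edited gene RPL12, which encodes a protein of the large ribosomal subunit, had 159 and 174 CPM in 4-cell controls against 27.5 and 33.6 CPM after editing, and 96.3 and 97.6 CPM in 8-cell controls against 14.1 and 11.9 CPM after editing. All 18 oocyte marker genes listed, among them ZP3, GDF9 and BTG4, reached a mean of 1 CPM. Their sums were 20316 and 26646 CPM in the 4-cell control libraries and 50119 and 58421 CPM in the 4-cell edited libraries. At the 8-cell stage the sums were 38387 and 50866 CPM in controls and 53744 and 56950 CPM after editing. Nothing in the labels says whether the 2 libraries of a group came from separate fertilisations, so p-values measure the spread between these pools.

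Of the 9 genes 8 reached the mean of 1 CPM over the 8 libraries that was required for a test, and AREG did not. TNFAIP6, at a mean of 1.255 CPM, passed only through its control libraries. Its means were 1.93 CPM in 4-cell and 2.81 CPM in 8-cell controls, against 0.102 and 0.180 CPM in edited embryos. A gene was called where limma's Benjamini-Hochberg adjusted p-value over 12129 tested genes was under 0.05. A fold change is a difference of log2(CPM + 1), which understates the change of weakly expressed genes.

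At the 4-cell stage the genes split in direction. HAS2 and GREM1 were higher in edited than in control embryos, EGFR, TNFAIP6, VCAN and CD44 were lower, and PTGS2 and PTX3 did not pass the test. Thus 2 of 8 were called higher, where 18.9% of all tested genes were, and 4 of 8 lower, where 25.8% were. The number of all genes called higher was 2288, and 1313 without the first 4-cell control library and 1490 without the first 4-cell edited library. The median log2 fold change of the 8 tested genes was -0.78, beside -0.02 over all tested genes.

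**Figure D1:**
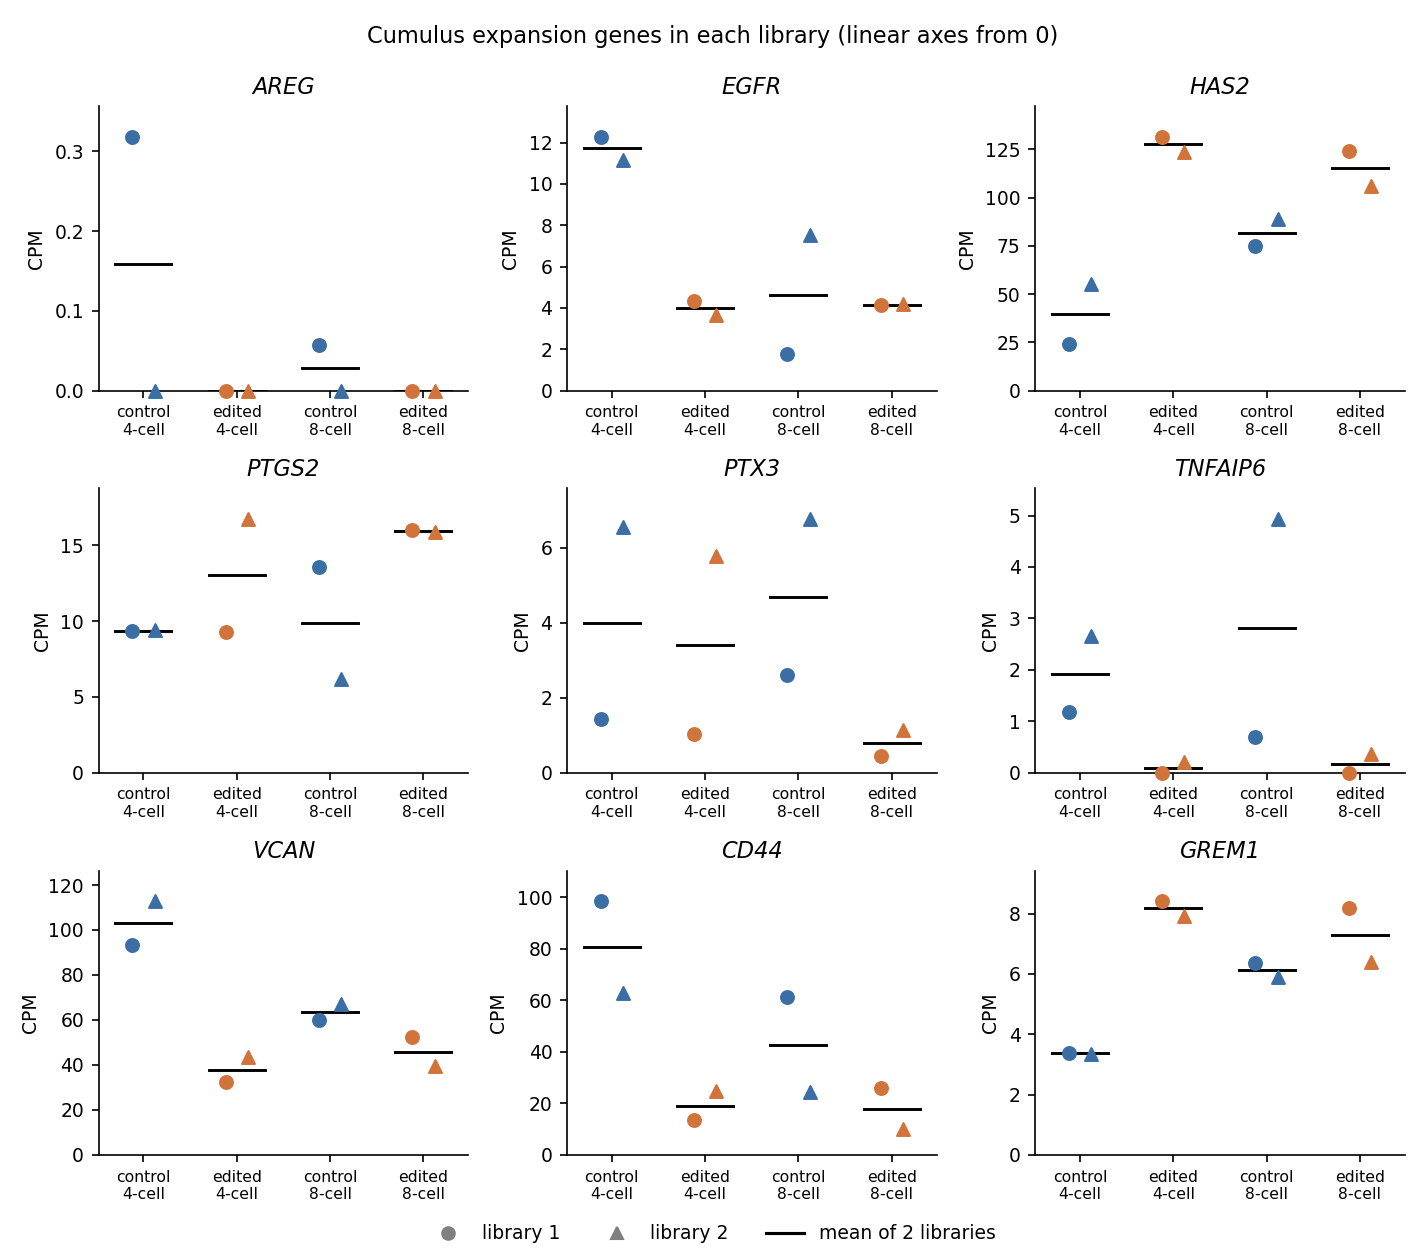
CPM of the 9 genes in every library, by group, with libraries 1 and 2 as circles and triangles and the mean of 2 libraries as a line; each panel has its own linear axis from 0. HAS2 and GREM1 lie higher in the edited libraries (orange), VCAN and TNFAIP6 lower, and AREG is at 0 in 6 of 8 libraries.

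Of the EGF-like ligands, AREG was scarcely represented. HBEGF, another listed EGF-like ligand, stood between 171 and 285 CPM per library, and is named here after its values were seen. AREG, the EGF-like ligand amphiregulin, had 11 reads (0.319 CPM) in the first 4-cell control library and 2 reads (0.0572 CPM) in the first 8-cell control library, and 0 reads in the other 6. No test and no fold change are given for it. The libraries with AREG reads are both controls, and the second library of each of these groups had none.

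EGFR, the receptor that amphiregulin activates, stood at 12.3 and 11.1 CPM in 4-cell control libraries and at 4.31 and 3.66 CPM in 4-cell edited libraries. The groups did not overlap, and the log2 fold change was -1.35 (SE 0.455, adjusted p = 0.0237 by limma). Of the 8-cell groups, the control libraries stood at 1.77 and 7.51 CPM, one below and one above the edited libraries at 4.12 and 4.19 CPM (log2 fold change 0.09, SE 0.455, adjusted p = 0.928 by limma). By mean level 4-cell controls came first and were separate from all other groups, which overlapped one another. The 4-cell call rests on both libraries of each group: without any 1 of the 4 the limma adjusted p-value lay at 0.106, 0.0600, 0.0763 and 0.111, and the quasi-likelihood test of edgeR, run on recovered reads, gave 0.0572.

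HAS2 encodes the hyaluronan synthase that cumulus cells use to make the matrix. It stood at 24.3 and 55.4 CPM in 4-cell control libraries and at 132 and 124 CPM in 4-cell edited libraries. In 8-cell controls it stood at 74.9 and 88.8 CPM, and in 8-cell edited embryos at 124 and 106 CPM. All 4 edited libraries lay above all 4 control libraries. The means were 127.8 ± 5.47 against 39.8 ± 22.0 CPM at the 4-cell stage (SD, n = 2), a log2 fold change of 1.77 (SE 0.307, adjusted p = 0.000260 by limma). At the 8-cell stage they were 115.3 ± 12.9 against 81.9 ± 9.78 CPM (SD, n = 2), a log2 fold change of 0.49 (SE 0.307, adjusted p = 0.332 by limma), which did not pass. From the highest mean the order was 4-cell edited, 8-cell edited, 8-cell control and 4-cell control, and only the edited groups overlapped. The call at the 4-cell stage held under each of 18 alternatives. Other hyaluronan synthases were near the detection limit, with HAS1 between 0 and 0.359 CPM and HAS3 between 0.0572 and 0.418 CPM per library.

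PTGS2 encodes the cyclooxygenase that makes the precursor of prostaglandin E2 in cumulus cells. Its 4-cell control libraries stood at 9.33 and 9.44 CPM and its 4-cell edited libraries at 9.31 and 16.8 CPM, so that only 1 edited library differed from the controls. The 8-cell edited libraries stood at 16.1 and 15.9 CPM, above the control libraries at 13.6 and 6.21 CPM. Neither difference passed, with log2 fold changes of 0.38 (SE 0.390, adjusted p = 0.452 by limma) and 0.73 (SE 0.390, adjusted p = 0.253 by limma). Neighbouring groups overlapped throughout the order of mean levels.

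PTX3, pentraxin 3, is a multimeric protein that organises the hyaluronan matrix. It stood at 1.42 and 6.54 CPM in 4-cell control and at 1.04 and 5.79 CPM in 4-cell edited libraries, ranges that overlapped almost fully (log2 fold change -0.20, SE 0.601, adjusted p = 0.814 by limma). In the 8-cell controls it stood at 2.60 and 6.77 CPM, above the edited libraries at 0.448 and 1.14 CPM, which corresponds to 15 and 38 reads (log2 fold change -1.59, SE 0.601, adjusted p = 0.0923 by limma). DESeq2 on the recovered reads gave an adjusted p-value of 0.0347 for this difference and edgeR 0.137. Without the first 8-cell control library it was -2.14 (adjusted p = 0.0372 by limma), and without the second -1.03 (adjusted p = 0.450). In the RefSeq annotation of ARS-UCD2.0 PTX3 lies within the span of VEPH1, and the labels do not say whether reads were counted by strand. VEPH1 itself stood between 0.200 and 2.99 CPM per library.

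TNFAIP6 encodes TSG-6, the protein that transfers heavy chains onto hyaluronan. It had 41 and 91 reads in 4-cell control libraries (1.19 and 2.67 CPM), and 0 and 7 reads in 4-cell edited libraries (0 and 0.205 CPM). Among 8-cell embryos, controls had 24 and 167 reads (0.687 and 4.94 CPM) and edited libraries 0 and 12 (0 and 0.359 CPM). Every edited library lay below every control library. The 4-cell log2 fold change was -1.37 (SE 0.516, adjusted p = 0.0409 by limma), and the 8-cell value was -1.44 (SE 0.516, adjusted p = 0.0743 by limma). On the recovered reads, without the added 1 CPM, edgeR estimated -4.01 and -3.83 with adjusted p-values of 0.0684 and 0.149, and DESeq2 -4.12 and -3.85 with 0.0113 and 0.0328. Each edited group holds 1 library at 0, so the size of these fitted values depends on the model. Without the second 4-cell control library, the first 4-cell edited library or the second, the 4-cell limma adjusted p-value was 0.230, 0.187 or 0.106. It was 0.102 with a pseudocount of 5 CPM, 0.0798 without the filter and 0.0537 without the intensity trend. The 8-cell value was -2.35 (adjusted p = 0.00228 by limma) without the first 8-cell control library.

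PTX3 and TNFAIP6 were higher in library 2 than in library 1 in each of the 4 groups, as were 4.4% of all tested genes. GREM1 was lower in library 2 than in library 1 in each group, as were 3.82% of all tested genes. What a library number stands for is not given in the labels.

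VCAN encodes versican, a large proteoglycan that binds hyaluronan. It stood at 93.5 and 113 CPM in 4-cell control and at 32.3 and 43.6 CPM in 4-cell edited libraries. The 8-cell controls stood at 59.9 and 67.0 CPM and the 8-cell edited libraries at 52.5 and 39.5 CPM. All 4 edited libraries lay below all 4 controls. At the 4-cell stage the log2 fold change was -1.43 (SE 0.259, adjusted p = 0.000370 by limma), which held under each of 18 alternatives. At the 8-cell stage it was -0.47 (SE 0.259, adjusted p = 0.267 by limma). The order of mean levels was 4-cell control, 8-cell control, 8-cell edited and 4-cell edited, the reverse of that of HAS2, and again only the edited groups overlapped.

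CD44 encodes a cell surface receptor of hyaluronan. It stood at 98.5 and 62.8 CPM in 4-cell control libraries against 13.5 and 24.8 CPM in 4-cell edited libraries, ranges that did not overlap. In 8-cell embryos the controls stood at 61.1 and 24.2 CPM and the edited libraries at 26.0 and 9.97 CPM, which overlapped. The 4-cell log2 fold change was -2.04 (SE 0.456, adjusted p = 0.00185 by limma), and without the first 4-cell edited library it was -1.63 with an adjusted p-value of 0.0530. The 8-cell value was -1.20 (SE 0.456, adjusted p = 0.0934 by limma). Without the second 8-cell control library it was -1.85 with a limma adjusted p-value of 0.0170, and without the first 8-cell edited library -1.85 with 0.0186. Without the first 8-cell control library or the second 8-cell edited library it was -0.55, with adjusted p-values of 0.546 and 0.579. CD44 overlaps a long noncoding RNA gene in the same annotation.

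GREM1, gremlin, is an antagonist of bone morphogenetic proteins that cumulus cells produce under the influence of oocyte factors. It stood at 3.39 and 3.34 CPM in 4-cell control and at 8.42 and 7.93 CPM in 4-cell edited libraries. In 8-cell controls it stood at 6.35 and 5.91 CPM and in 8-cell edited embryos at 8.19 and 6.38 CPM. All 4 edited libraries lay above all 4 controls, the nearest pair being 6.38 and 6.35 CPM at the 8-cell stage. The 4-cell log2 fold change was 1.07 (SE 0.353, adjusted p = 0.0213 by limma), and the 8-cell value was 0.21 (SE 0.353, adjusted p = 0.751 by limma). Without the first 4-cell control library, the second, or the first 4-cell edited library, the 4-cell adjusted p-value was 0.0893, 0.0750 or 0.0676.

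**Figure D2:**
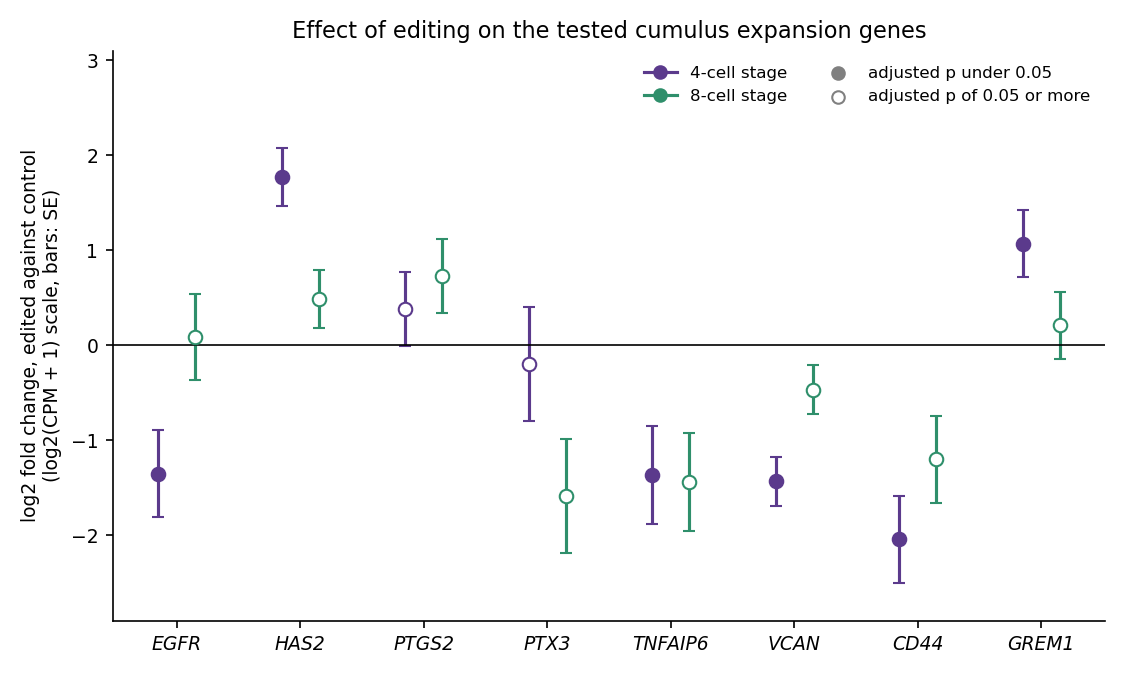
Log2 fold change of edited against control embryos for the 8 tested genes at the 4-cell (purple) and the 8-cell stage (green), on the log2(CPM + 1) scale with the SE; filled points have a limma adjusted p-value under 0.05. HAS2 (1.77) and GREM1 (1.07) are filled above 0 and EGFR, TNFAIP6, VCAN and CD44 below 0 at the 4-cell stage, and no point is filled at the 8-cell stage.

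At the 8-cell stage none of the 8 genes was called by limma, where 1.08% of tested genes were called higher and 14.5% lower. Of all genes called, 6.91% were higher, and 23.0% with upper-quartile scaling. At an unadjusted p-value under 0.05 there were 3 of 8 (PTX3, TNFAIP6 and CD44, all lower in edited embryos), against 27.1% of all tested genes. DESeq2 called 2 of them lower, PTX3 and TNFAIP6, and edgeR 0. Averaged over both stages 2 of 8 were called higher (HAS2 and GREM1, with 17.6% of tested genes) and 3 of 8 lower (TNFAIP6, VCAN and CD44, with 27.2%). Of all genes called over both stages 39.3% were higher, and 52.4% with upper-quartile scaling. The averaged log2 fold changes were 1.13 for HAS2 (SE 0.217, adjusted p = 0.000549 by limma), 0.64 for GREM1 (SE 0.249, adjusted p = 0.0472 by limma) and -1.40 for TNFAIP6 (SE 0.365, adjusted p = 0.00532 by limma). For VCAN the value was -0.95 (SE 0.183, adjusted p = 0.000569 by limma) and for CD44 -1.62 (SE 0.322, adjusted p = 0.000730 by limma). EGFR (-0.63), PTX3 (-0.89) and PTGS2 (0.55) did not pass. Without the first 8-cell control library all 3 passed, at -1.04 (adjusted p = 0.00832 by limma), -1.17 (0.0369) and 0.81 (0.0319), and without the second none did, at -0.23, -0.62 and 0.30. PTX3 also passed without the first 4-cell control library (-1.30, 0.0236) and without the second 4-cell edited library (-1.33, 0.0332), and PTGS2 with upper-quartile scaling (0.70, 0.0449). The GREM1 call was lost on leaving out any 1 of the 8 libraries, with adjusted p-values from 0.0611 to 0.155, and without the filter on low values (0.0728).

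Separation of libraries was read beside the same count over all genes. HAS2 and GREM1 were higher in all 4 edited libraries than in all 4 controls, as were 9.98% of the tested genes. TNFAIP6 and VCAN were lower in all 4, as were 19.6%. TNFAIP6 was tested only because of its levels in controls, so its lower position is not independent of the filter.

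Whether editing had a different effect at the 2 stages was tested directly, and no gene of the 8 was called by limma (3.96% of tested genes were). At an unadjusted p-value under 0.05 there were 3 (EGFR, HAS2 and VCAN, with 23.1% of tested genes), and edgeR and DESeq2 each called 0. The 8-cell effect minus the 4-cell effect was -1.28 on the log2 scale for HAS2 (SE 0.434, adjusted p = 0.0973 by limma), and it ranged with 1 library left out from -1.86 (adjusted p = 0.00311, without the second 4-cell control library) to -0.70 (adjusted p = 0.306, without the first). For VCAN the difference of effects was 0.96 (SE 0.366, adjusted p = 0.130 by limma). For EGFR it was 1.44 (SE 0.644, adjusted p = 0.194 by limma), and with 1 library left out it ranged from 0.63 (adjusted p = 0.648, without the first 8-cell control library) to 2.25 (adjusted p = 0.0384, without the second).

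Within control embryos the 2 stages were compared. HAS2 was the only gene of the 8 called higher at the 8-cell stage, with a log2 fold change of 1.13 (SE 0.307, adjusted p = 0.0349 by limma), where 2.75% of tested genes were called higher. None was called lower, where 6.27% of tested genes were, and 4 of the 8 had an unadjusted p-value under 0.05, as did 29.4% of tested genes. Upper-quartile scaling raised the share of higher genes among all calls of this comparison from 30.5% to 43.1%. The number of all genes called was 1094 by limma and 86 by edgeR, and 13 by limma without the first 4-cell control library. EGFR had a log2 fold change of -1.39 (SE 0.455), VCAN of -0.69 (SE 0.259), CD44 of -1.01 (SE 0.456) and GREM1 of 0.71 (SE 0.353), with limma adjusted p-values of 0.0628 to 0.195. The HAS2 value was 0.55, with an adjusted p-value of 0.335, without the first 4-cell control library, which had the lowest HAS2 level of all 8. edgeR called none of the 8, and DESeq2 called 1 higher. The EGFR value was -2.20 (adjusted p = 0.00944 by limma) without the second 8-cell control library and -0.58 (adjusted p = 0.574) without the first. The 4-cell control libraries enter this comparison and the editing comparison at the 4-cell stage alike.

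Within edited embryos none of the 8 genes was called between stages by limma, where 5.18% of tested genes were. Among all calls of this comparison 28.0% were higher at the 8-cell stage, and 47.0% with upper-quartile scaling. None had an unadjusted p-value under 0.05 in limma, where 21.5% of tested genes did, and edgeR and DESeq2 called 0 and had 1 gene each at an unadjusted p-value under 0.05. HAS2, for one, stood at 127.8 ± 5.47 and 115.3 ± 12.9 CPM (SD, n = 2) at the 4-cell and 8-cell stages of edited embryos.

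Markers of cumulus and granulosa cells were measured beside these genes, from a list of 25 of which 24 were analysed and 19 reached the mean of 1 CPM. Their summed level was 1500 and 2001 CPM in the 4-cell control libraries, 493 to 542 CPM in 4-cell edited, 643 to 1030 CPM in 8-cell control and 523 to 551 CPM in 8-cell edited libraries. In edited embryos 14 of the 19 were called lower at the 4-cell stage (median log2 fold change -1.69) and 9 of 19 at the 8-cell stage (median -1.38), and none was called higher. Of the 19, AMH, GATA4 and KRT18 averaged under 1 CPM in both edited groups and were tested only because of their levels in controls. Their lower position is not independent of the filter. Among the most abundant, SERPINE2 was called lower at the 4-cell stage (log2 fold change -2.07), whereas FDX1 (-0.15) and STAR (-0.46) were not called. LHCGR, NR5A1, FOXL2, AMHR2 and HSD17B1 stayed under a mean of 1 CPM. In pooled embryos, fewer cells of a type and less RNA per cell cannot be told apart. The part of these marker transcripts in the lower levels of EGFR, TNFAIP6, VCAN and CD44 was not tested.

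Set against the marker sum, HAS2 and GREM1 were higher in every edited library than in every control library, and the other tested genes overlapped. The sum mixes markers that were called lower with markers that were not, so these ratios depend on which markers it holds. Between 4-cell control and 4-cell edited means, CYP11A1 went from 214 to 8.93 CPM, STAR from 176 to 127 and FDX1 from 183 to 162. HAS2 stood at 12.1 and 36.9 CPM per 1000 CPM of markers in 4-cell controls, 117 and 86.2 in 8-cell controls, and 193 to 252 in the 4 edited libraries, which were all higher than the controls. GREM1 stood at 1.69 to 9.88 in the controls and at 11.6 to 16.1 in the edited libraries. For VCAN the ranges overlapped, with 46.7 to 93.2 in controls and 59.6 to 100.4 in edited libraries. CD44 overlapped as well, with 23.5 to 95.0 in controls and 18.1 to 50.3 in edited libraries. TNFAIP6 stood at 0.594 to 4.80 in controls and at 0 to 0.652 in edited libraries, ranges that overlapped. EGFR, which was called lower in CPM in 4-cell edited embryos, stood at 6.14 and 7.43 in 4-cell controls, 2.76 and 7.29 in 8-cell controls, and 7.42 to 7.96 in the edited libraries. PTGS2 (4.66 to 21.1 in controls, 17.2 to 34.0 in edited libraries) and PTX3 (0.709 to 6.58 and 0.857 to 11.8) overlapped between controls and edited libraries.

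**Figure D3:**
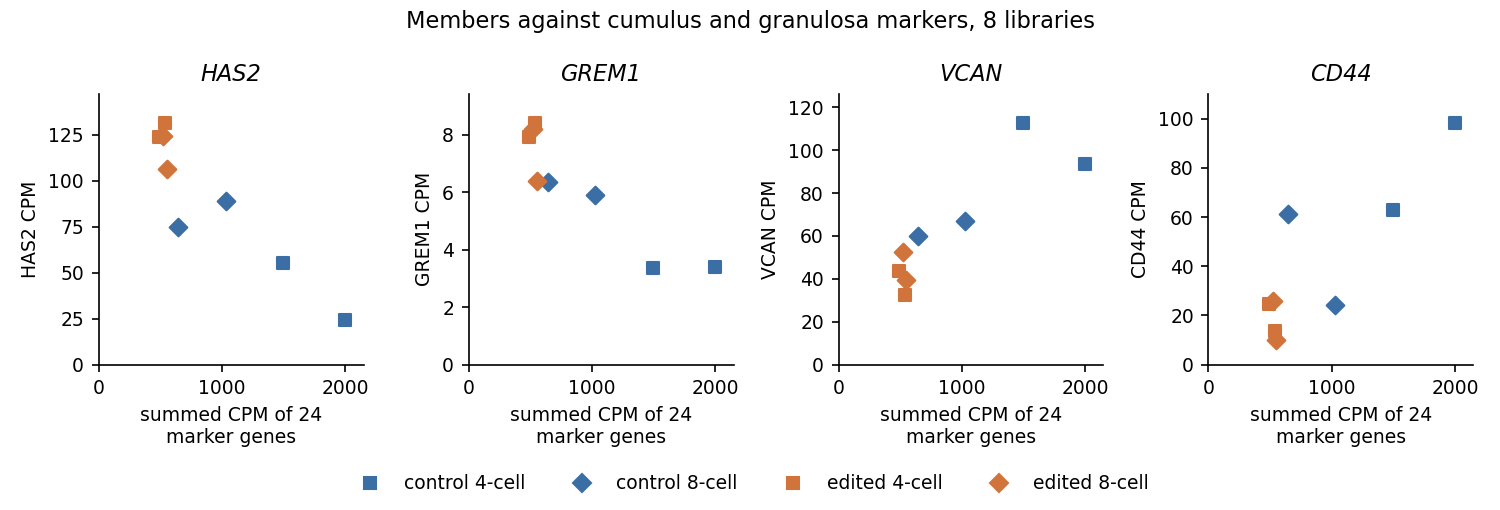
CPM of HAS2, GREM1, VCAN and CD44 in each library against the summed CPM of 24 cumulus and granulosa markers in the same library; squares are 4-cell and diamonds 8-cell libraries, blue control and orange edited, with linear axes from 0. The 2 libraries with the largest marker sums (1500 and 2001 CPM) are the 4-cell controls, where HAS2 and GREM1 are lowest and VCAN and CD44 highest.

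Markers of further cell types were measured too. Of 7 stroma and theca markers 6 were tested, and 5 were called lower in edited embryos at each stage, with sums of 3097 and 6439 CPM in 4-cell controls against 1337 and 1968 after editing, and of 2621 and 3184 CPM in 8-cell controls against 132 and 790 after editing. Most of that sum was LUM, and CYP17A1, which defines theca cells, stayed under 0.1 CPM in every group mean. COL1A1 averaged under 1 CPM in both edited groups and was tested only because of its levels in controls. Leukocyte markers summed to 4.57 to 12.4 CPM per library, endothelial markers to 40.5 to 125 CPM and red cell markers to at most 1.11 CPM. Of the leukocyte genes tested 1 of 2 was called lower at the 4-cell and 1 of 2 higher at the 8-cell stage, and no endothelial gene was called. CD68, the leukocyte gene called lower, likewise averaged under 1 CPM in both edited groups. Oocyte markers were called higher for 7 and lower for 1 of 18 at the 4-cell stage, and higher for 3 at the 8-cell stage. Beside these marker counts, 18.9% of all tested genes were called higher and 25.8% lower at the 4-cell stage. At the 8-cell stage the shares were 1.08% and 14.5%.

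The rest of the pathway was read from a list of 69 other genes of cumulus expansion, of which 60 were analysed and 39 tested. At the 4-cell stage 11 of the 39 were called higher and 13 lower in edited embryos, where 18.9% and 25.8% of all tested genes were. In 8-cell embryos the counts were 1 and 7, beside 1.08% and 14.5% of all tested genes. The medians on the log2 scale were 0.05 and 0.11, against -0.02 and 0.00 for all tested genes. FST and FSHR stand in the marker list as well, and GDF9 and BMP15 in the oocyte list. The counts by role that follow rest on few genes each and stand beside the same shares of all tested genes.

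Of 13 tested signals and receptors of the oocyte to cumulus dialogue, 6 were called higher and 1 lower in 4-cell edited embryos. BMPR2, the type II receptor of BMP15 and GDF9, stood at 16.5 and 31.0 CPM in 4-cell control and 82.6 and 94.6 CPM in 4-cell edited libraries (log2 fold change 1.92, SE 0.287, adjusted p = 7.56e-05 by limma). SMAD5, which carries BMP signals to the nucleus, stood at 62.9 and 89.6 against 180 and 167 CPM (log2 fold change 1.19, SE 0.241, adjusted p = 0.000874 by limma). At the 8-cell stage 0 of these 13 were called higher and 1 lower. FST, follistatin, was the BMP antagonist besides GREM1 that could be tested, and is named here after its values were seen. It went the other way from GREM1, from 177 and 101 CPM in 4-cell controls to 5.26 and 2.87 CPM in edited embryos (log2 fold change -4.78, adjusted p = 2.62e-05 by limma).

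Of the 5 other hyaluronan genes tested, 1 was called higher and 3 lower at the 4-cell stage. HAPLN3, 1 of the 3 and named here after its values were seen, was tested only because of its level in 4-cell controls. Its means were 3.60 CPM there, 0.188 CPM in 4-cell edited, 0.262 CPM in 8-cell control and 0.568 CPM in 8-cell edited embryos. Its lower position is not independent of the filter. HMMR, a hyaluronan receptor that also acts on the mitotic spindle, stood at 135 and 244 CPM in 4-cell control and 373 and 610 CPM in 4-cell edited libraries (log2 fold change 1.39, SE 0.288, adjusted p = 0.00106 by limma). BSG, basigin, stood at 378 and 325 against 37.6 and 39.9 CPM (log2 fold change -3.15, SE 0.235, adjusted p = 6.14e-07 by limma). HYAL2, a hyaluronidase, stood at 23.5 and 13.6 against 1.10 and 1.17 CPM in 4-cell embryos (log2 fold change -3.15, SE 0.395, adjusted p = 1.56e-05 by limma). It was also lower at the 8-cell stage, at 4.89 and 7.39 against 0.598 and 0.689 CPM (log2 fold change -2.10, SE 0.395, adjusted p = 0.00124 by limma).

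Of 4 tested proteases listed for versican cleavage, 2 were called higher and 2 lower in 4-cell edited embryos. CTSL, cathepsin L, stood at 35.6 and 25.7 CPM in 4-cell control and 0 and 0.644 CPM in 4-cell edited libraries (log2 fold change -4.61, SE 0.439, adjusted p = 1.46e-06 by limma). At the 8-cell stage CTSL was not called (log2 fold change -0.16, SE 0.439, adjusted p = 0.847 by limma). ADAMTS1, the protease that cleaves versican during ovulation, was lower at the 8-cell stage, at 13.3 and 64.3 CPM in control and 5.50 and 2.43 CPM in edited libraries (log2 fold change -2.69, SE 0.528, adjusted p = 0.00173 by limma). ADAMTS9 was the 1 pathway gene called higher at that stage, at 2.37 and 1.69 against 9.77 and 6.89 CPM (log2 fold change 1.62, SE 0.439, adjusted p = 0.0176 by limma). Both were also called at the 4-cell stage by limma, ADAMTS1 lower (log2 fold change -2.45, adjusted p = 0.00143) and ADAMTS9 higher (1.92, adjusted p = 0.0022). In the prostaglandin branch 2 of 4 genes were called lower at the 4-cell stage and 1 of 4 at the 8-cell stage. PTGES3, a prostaglandin E synthase and HSP90 co-chaperone, stood at 225 and 236 CPM in 8-cell control and 107 and 87.8 CPM in 8-cell edited libraries (log2 fold change -1.24, SE 0.223, adjusted p = 0.000849 by limma).

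**Figure D4:**
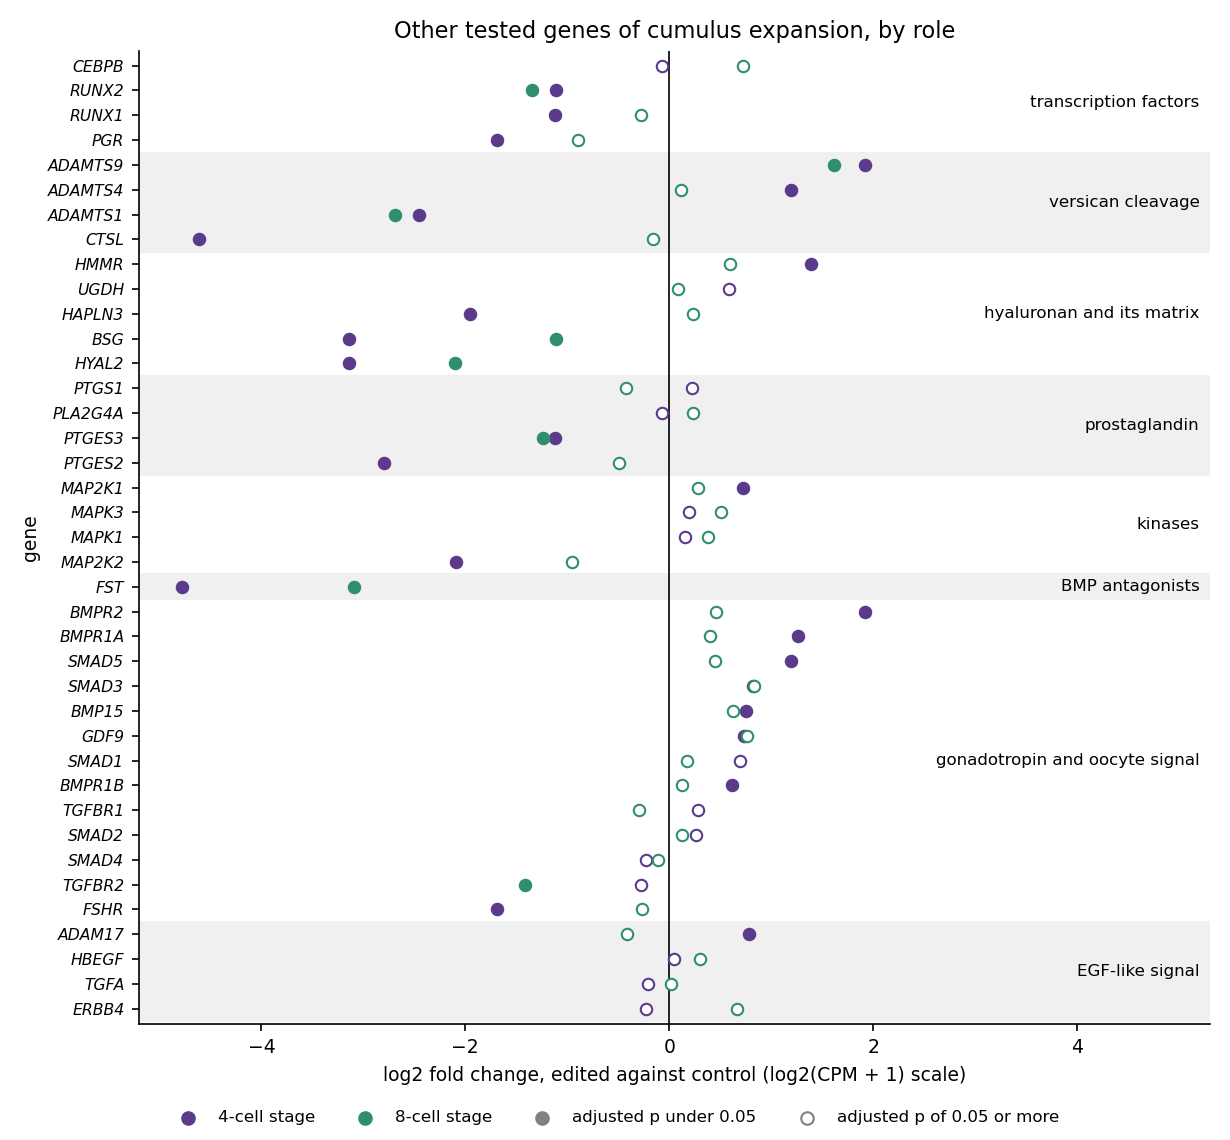
Log2 fold change of edited against control embryos for the 39 tested pathway genes other than the 9, grouped by role, at the 4-cell (purple) and 8-cell stage (green); filled points have a limma adjusted p-value under 0.05. Of 11 filled points right of 0 at the 4-cell stage 6 are signals and receptors of the oocyte to cumulus dialogue, and FST, CTSL, BSG and HYAL2 lie farthest to the left.

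The genes whose levels ran most like each of the 8 over the 8 libraries were found by Pearson's r of log2(CPM + 1). Since the libraries fall into 4 groups, r follows differences between groups as well as between libraries, and no p-value is given. HAS2 ran most like LHX8 (0.994), NKAIN2 (0.993) and ERBIN (0.991), and GREM1 most like ATP10D (0.996), EHBP1 (0.985) and ATG14 (0.985). Among the genes most like VCAN were NONO (0.992) and SLC25A5 (0.985), and CD44 ran most like WDR89 (0.944), TMEM198B (0.943) and NSMCE2 (0.940). For EGFR these were PNPLA6 (0.971), TRPT1 (0.959) and PHC2 (0.951), for PTGS2 ZNF391 (0.966), C8H9orf43 (0.965) and RSU1 (0.955). PTX3 ran most like MBNL1 (0.989), TRMT10A (0.973) and DDX4 (0.927), and TNFAIP6 most like PRMT7 (0.975), RPP14 (0.974) and GSTA2 (0.971). None of the 8 genes stood among the 3 most alike of another.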

How the data were processed

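Transcripts of 8 pools of 5 embryos were sequenced from amplified cDNA (SMART-Seq and Nextera XT, per the labels' protocols). Trim Galore 0.6.7, HISAT2 2.2.1 and featureCounts 2.0.1 are named in the submitters' processing notes, and the genome build and annotation are not given in the sources used here. The deposited values are CPM, although the table is named for raw counts. They are whole multiples, within 0.05 reads, of 1 step per library in 100% of positive values, which gave back the reads. Of 12 columns, 4 match no sample given here and were not used. Amplified reads without molecular identifiers are not independent molecules, so no counting error is given for counts above 0. The limit of 3 reads for a count of 0 treats reads as independent draws.

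limma 3.58.1 (R 4.3.3, intensity trend, two-sided) was fitted to log2(CPM + 1) of all 8 libraries, with 1 mean per group, restricted to 12129 genes averaging 1 CPM or more. To check the code, the script was run on simulated independent counts with the same spread setting for every gene. That run does not measure the spread between these pools. edgeR 4.0.16 and DESeq2 1.42.0 on the recovered reads were alternatives; for editing, edgeR called 5172 genes in 4-cell and 1695 in 8-cell embryos, limma 5419 and 1895. The 9 genes, the pathway and marker lists (cumulus and granulosa, oocyte, stroma and theca, leukocyte, endothelial, red cell) and all tests were chosen with earlier results of these data known. Named were the 9 genes, up to 3 called pathway genes per direction and stage by p-value, and the 3 most correlated genes of each, of which 1 is not reported here. All 9 symbols matched RefSeq's gene table of ARS-UCD2.0, used for names and neighbours alone.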

Additional observations from a re-analysis of the deposited data

How the results depend on the processing

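Over 32 fold changes of single genes, 562 values were computed under other settings: 497 kept direction and side of the threshold, 37 lost a call, 21 gained one, and 7 changed sign, none of them called. EGFR at the 8-cell stage became -0.01 with a pseudocount of 5 CPM and -0.08 with edgeR and with DESeq2, and with 1 library left out it ranged from -0.72 to 0.90. With 1 library left out, PTGS2 at the 4-cell stage ranged from -0.01 to 0.77 and PTX3 from -1.07 to 0.67. The number of the 8 genes called ranged, with 1 library left out, from 2 to 6 for editing at the 4-cell stage (lowest without the first 4-cell edited library; 3 without the second 4-cell control), from 0 to 2 at the 8-cell stage, from 3 to 7 over both stages (3 without the second 8-cell control), from 0 to 1 between control stages, and from 0 to 1 for the difference of effects. Editing at the 8-cell stage gave 2 calls with DESeq2 and 1 with only the libraries compared. Between control stages there were 0 calls with a pseudocount of 0.1 CPM, without a filter, with edgeR, without the intensity trend and with only the libraries compared, and 2 with a pseudocount of 5 CPM. Upper-quartile scaling moved the median of all genes by 0.115, 0.168 and 0.14 for editing at the 4-cell stage, at the 8-cell stage and over both, and edgeR moved it by -0.103 for the difference of effects. Counts over all genes moved by over 1.5 times mainly between stages and for the difference of effects: from 1094 to 86 (edgeR), 1629 being the DESeq2 count, for control stages, from 628 to 324 and 1286 for edited stages, and from 480 to 18 and 1065 for the difference of effects. Without a filter these 3 comparisons gave 1, 17 and 0 calls, without the trend 180, 106 and 0, and with 1 library left out 13 to 2106, 7 to 989 and 0 to 1397. The control stages gave 595 calls with a pseudocount of 0.1 CPM, and with only the libraries compared 161, the edited stages then giving 1149. Editing at the 8-cell stage gave 1895 calls, and 1024 without the second 8-cell control library. The cause of these changes was not tested. TNFAIP6 fell under the filter without the second 8-cell control library and has no value there.

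Library numbers are not stated to pair libraries, and deviations of same-numbered libraries correlated between -0.302 and 0.108. With a replicate block 3 genes were called for editing at the 8-cell stage (PTX3, 0.0132; TNFAIP6, 0.0325; CD44, 0.0468), and over both stages PTX3 gained a call (0.0228) and GREM1 lost it (0.0668), all limma adjusted p-values. With the numbers of the 8-cell controls crossed, chosen after seeing the data, 0 genes were called for editing at the 8-cell stage, 2 genes were called between control stages, and 1690 of all genes there and 864 for the difference of effects.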
